A study of Mus musculus with 28 samples.

Results

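Overnight transfection with any of 5 siRNAs directed at tagged cyclin D1 was compared with no treatment in 12 RNA-seq libraries, out of 28 in the series. The cells were mouse embryonic fibroblasts of C57BL/6x129Sv background, transformed with RAS and DNP53, in which cyclin D1 carried a tag. Both clones used, 12 and 14, are single clones of this line, and each gave 1 library per condition. The siRNAs of the 10 treated libraries were aimed at the FLAG or HA epitope of the tag, or at cyclin D1 itself (named Qiagen, Nature and Life). They were delivered in the evening with the lipid carrier RNAiMAX, and RNA was taken with Trizol the next morning. The other 2 libraries came from untreated cells of the same clones. Libraries with the control siRNA SCR were no arm of this comparison, so it measures what the 5 siRNAs share: the transfection, cyclin D1 loss and any difference between days. The label of untreated clone 12 carries a date that the siRNA labels lack, and that of untreated clone 14 carries none, so a day effect cannot be told apart from transfection. What the n of 3 or 4 in the titles counts is not stated there, and with 1 library per clone and condition the p-values measure only the spread between these libraries.

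Cyclin D1 binds CDK4 and CDK6, and the complex inactivates the retinoblastoma protein and its relatives so that E2F factors can switch on genes of DNA replication. Lipid carriers take RNA into cells through endosomes and lysosomes. Cells meet oxidants and electrophiles with genes of the NRF2 programme, misfolded protein in the endoplasmic reticulum with chaperones of the unfolded protein response, and foreign RNA with interferon-inducible sensors.

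Total counts of the 12 libraries ran from 26558256 to 69442170. Levels are given as CPM, counts scaled to a common library size, which depend on transcript length and therefore compare libraries, not genes. In HA clone 12, Nature clone 14 and Life clone 14, over 2% of counts came from Rn45s, a ribosomal RNA precursor. Fibroblast markers summed to 11100 to 15700 CPM with siRNA and to 12100 and 8610 CPM in untreated clones 12 and 14. Epithelial markers summed to 122 to 3700 CPM with siRNA, and to 162 and 2300 CPM untreated. In bulk RNA, fewer cells of a type and less RNA per cell cannot be told apart. Macrophage markers summed to 20.7 to 149 CPM with siRNA and to 27.4 and 67.9 CPM untreated, with 3 of 10 (Emr1, Lyz2 and Tyrobp) at 0 in all 12 libraries. Neural markers summed to 17.4 to 103 CPM with siRNA and to 73.9 and 21.3 CPM untreated, with 3 of 10 (Olig2, Sox10 and Rbfox3) at 0. Endothelial markers summed to 1.49 to 16.6 CPM with siRNA and to 20.8 and 4.71 CPM untreated, and 6 of 10 myogenic markers were at 0. The part of other cell types in the results was not tested.

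The targeted gene, Ccnd1 (gene 12443, chromosome 7, 144929931 to 144939831, mm10), stood at 1003 CPM in untreated clone 12 and 1469 CPM in untreated clone 14. The 10 siRNA libraries ranged from 50.12 to 328.9 CPM with a median of 156, far below both. Pooled over the siRNAs, Ccnd1 fell 9.32-fold (log2 fold change -3.22 ± 0.15 SE, adjusted p by edgeR's quasi-likelihood test = 5.06e-10). The fall was smallest with Qiagen (log2 fold change -1.92) and largest with Nature (-4.43) and Life (-4.29), with FLAG at -2.98 and HA at -2.48. The siRNAs differed from each other in this (edgeR adjusted p = 1.89e-06 among the 5). With SCR siRNA, which shares the untreated libraries in its comparison, Ccnd1 was at -0.03.

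Across the transcriptome, edgeR called 4607 of 15099 genes, or 30.5%, at an adjusted p under 0.05. Of these, 1952 were higher with siRNA (12.9% of all genes) and 2655 lower (17.6%), and 300 and 362 changed at least 2-fold. All 10 siRNA libraries lay on the same side of their own clone's untreated library for 1176 of the higher and 1641 of the lower genes. The number of calls rests on 1 library. Without untreated clone 14, the comparison is that of clone 12 and 211 genes were higher and 359 lower. Without untreated clone 12, 921 were higher and 1635 lower. In these fits only the untreated reference was that of 1 clone, as the siRNA libraries of both clones stayed in. When the siRNAs were fitted as 1 group in the 12 libraries, so that differences between siRNAs count as spread, 306 were higher and 436 lower. The clones' own fold changes, which share no library, had Pearson's r 0.46 and Spearman's rho 0.631 across 13549 genes, given as a description because genes are not independent replicates. A test of the difference between the clones' responses called 0% of these genes with edgeR (287 at an unadjusted p under 0.05, and 5 with DESeq2). On simulated counts with 100 genes set to differ by 1 on the log2 scale it found 23. The simulated siRNAs of a clone had equal levels in these genes, whereas 25.1% of real genes were called as differing among the siRNAs. The test may therefore find fewer in the real data.

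Each siRNA alone was also set against the untreated libraries, which all 5 comparisons share. FLAG gave calls for 13.9% of genes, HA for 32.9%, Qiagen for 7.37%, Nature for 33.6% and Life for 15.7%. Called with all 5 in the same direction were 149 genes higher (0.987% of all tested) and 112 lower (0.742%). Of these, 37 rose and 6 fell at least 2-fold with each siRNA. The test among the 5 siRNAs, which uses no untreated library, called 25.1% of all genes and 38 of these 261. The count of 261 rests on single libraries: it was 53 without untreated clone 14 and 134 without untreated clone 12. It was 55 without FLAG clone 14, 95 without FLAG clone 12, 110 and 170 without Qiagen clones 14 and 12, 128 without Life clone 14, 134 without HA clone 14 and 139 without Nature clone 12.

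Most genes of the oxidative stress response list were called higher. Of 29 tested, 17 were higher and none lower, 9 of them with each siRNA, and the list's median log2 fold change was 0.43. Over all genes tested the median was 2.3e-11. Hmox1, heme oxygenase 1 (chromosome 8, 75093618 to 75100593), stood at 50.3 and 27.42 CPM in untreated clones 12 and 14. In clone 12 its 5 siRNA libraries held 222.4 to 315.8 CPM, and in clone 14 they held 75.52 to 140.5. No siRNA library overlapped the untreated ones, and the pooled rise was 4.46-fold (log2 fold change 2.16 ± 0.23 SE, adjusted p by edgeR = 4.14e-05). Nqo1, the quinone reductase (chromosome 8, 107388225 to 107403205), was at 47.61 and 40.42 CPM untreated, and its 10 siRNA libraries ran from 101.7 through a median of 157.7 to 181.7. It rose 3.42-fold (1.78, SE 0.13, edgeR adjusted p = 8.97e-07), by 1.48 on the log2 scale with Nature at the least and by 1.94 with Life at the most. Gsta4, a glutathione transferase for lipid peroxidation products, rose from 5.67 and 3.59 CPM to 15.58 to 20.54 in clone 12 and 6.859 to 8.608 in clone 14 (1.36, edgeR adjusted p = 6.44e-05). Srxn1, the sulfiredoxin that reactivates peroxiredoxins, rose by 0.88 (edgeR adjusted p = 0.000237) and the peroxiredoxin Prdx1 by 0.64 (0.000678). Transcripts of ferritin, the iron store, rose with them. Ftl1, the ferritin light chain, changed by 0.77 (edgeR adjusted p = 0.000212) and Fth1, the heavy chain, by 1.30 (0.00126), from 542.3 and 520.8 CPM to a median of 1264. The call for Fth1 ended without untreated clone 14 (adjusted p = 0.0714). The list had 12 higher genes without untreated clone 12 and 10 without untreated clone 14. The plot of levels by library sets Hmox1 and Nqo1 beside genes of the groups described next.

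**Figure D1:**
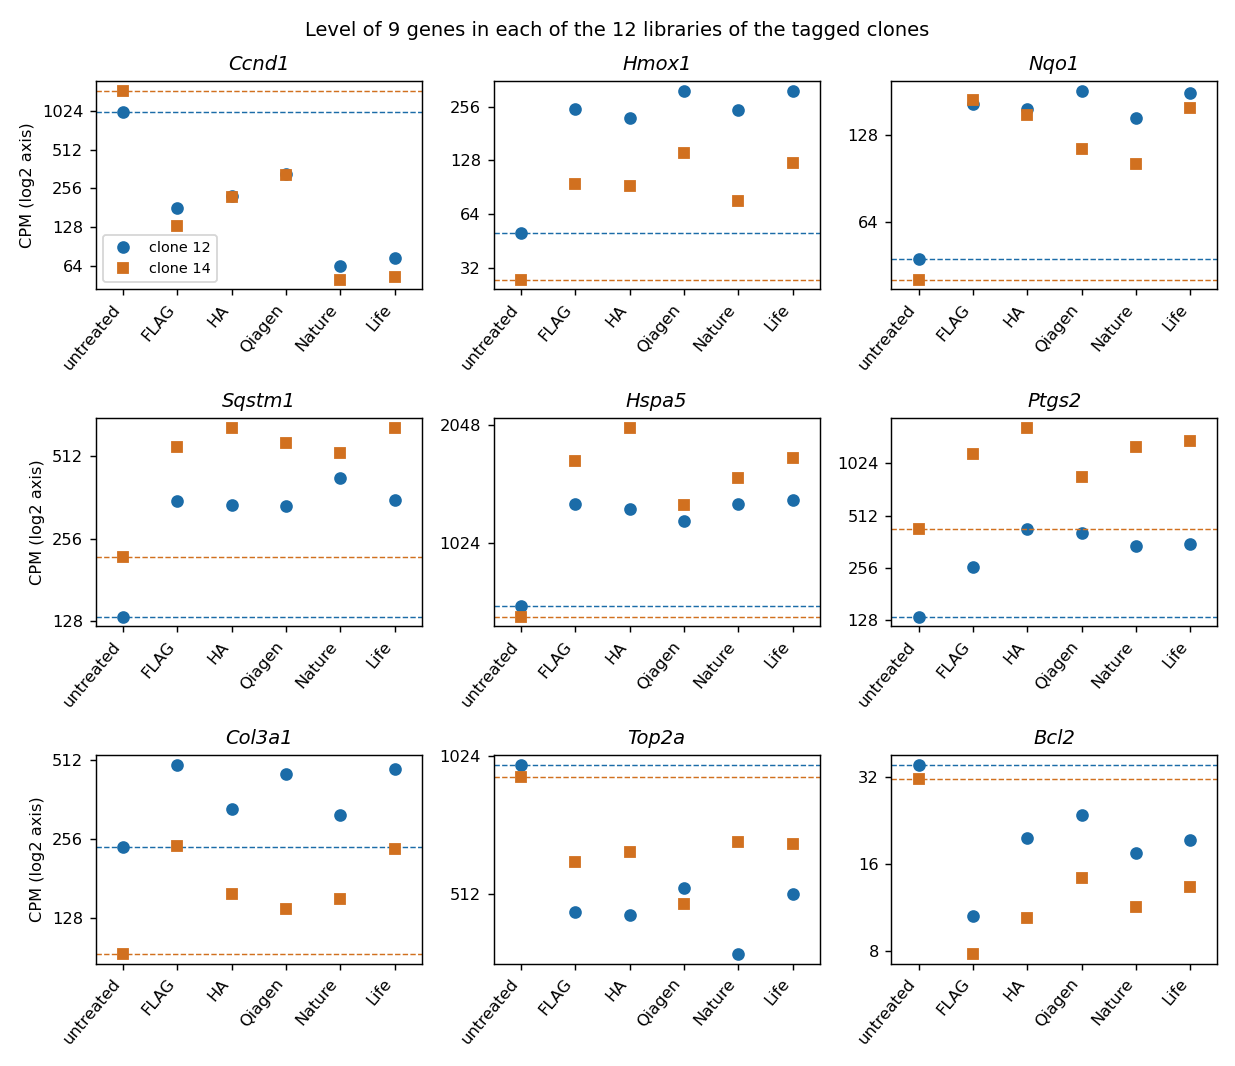
CPM (log2 axis) of 9 genes in the 2 untreated and 10 siRNA libraries of tagged clones 12 (circles) and 14 (squares), 1 point per library, with a dashed line at each clone's untreated level. Ccnd1, Top2a and Bcl2 lie below their clone's line with all 5 siRNAs, and the other 6 genes lie above it; for Ccnd1 the siRNA libraries run from 50.12 to 328.9 CPM against 1003 and 1469 untreated.

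Many chaperones and folding enzymes of the endoplasmic reticulum were called higher as well. In the unfolded protein response list 15 of 25 were higher and 1 lower, with a median log2 fold change of 0.64, and 5 were higher with each siRNA. Hspa5, the chaperone BiP (chromosome 2, 34772090 to 34776529), was at 710 and 665.1 CPM untreated. Its siRNA libraries held 1169 to 1322 CPM in clone 12 and 1280 to 2017 in clone 14, all above the untreated ones. It rose 2.07-fold (log2 fold change 1.05 ± 0.14 SE, adjusted p by edgeR = 0.000152). Sdf2l1, a cofactor of that chaperone, rose by 1.44 (edgeR adjusted p = 0.000384) and Dnajb9, a co-chaperone of its ATPase cycle, by 1.07 (0.000332). Calr, the lectin chaperone calreticulin, rose from 738 and 618.3 CPM to a median of 1272 (0.88, SE 0.16, edgeR adjusted p = 0.00111; 0.0956 without untreated clone 14). The single member that fell was Ern1, the stress sensor IRE1 alpha, at -1.67 (edgeR adjusted p = 0.00182). The list held 13 higher genes without untreated clone 12 and 3 without untreated clone 14.

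A letter pattern that the comparison did not use lay in some promoters of this list and was absent from most. The ER stress response element ERSE (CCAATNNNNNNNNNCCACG, searched on both strands) lay within 250 bases before to 50 after the start of 9 of 21 members with a RefSeq promoter of GRCm38.p6. Among all 11793 tested genes with a promoter it lay in 20, or 0.17%. Of the 9 members that hold it, 7 rose and none fell. Of the 12 that lack it, 7 rose and 1 fell. Stretches upstream of the start are shown for 4 of the chaperone genes that rose, on the gene's own strand, 5′ to 3′, with the element in capitals. In Calr and Hsp90b1 as printed here it reads on the opposite strand.
Hspa5 (chr2:34772005-34772063, plus strand): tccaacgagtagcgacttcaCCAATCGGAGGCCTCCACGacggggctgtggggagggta
Calr (chr8:84847055-84847113, minus strand): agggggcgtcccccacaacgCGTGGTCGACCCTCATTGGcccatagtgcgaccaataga
Hsp90b1 (chr10:86705513-86705571, minus strand): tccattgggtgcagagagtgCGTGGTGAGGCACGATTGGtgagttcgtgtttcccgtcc
Pdia6 (chr12:17266471-17266529, plus strand): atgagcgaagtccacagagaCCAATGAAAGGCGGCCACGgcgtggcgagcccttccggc
Hsp90b1, the chaperone GRP94, rose by 0.65 (edgeR adjusted p = 0.00227) and Pdia6, a disulfide isomerase, by 0.64 (0.0014). A match describes these letters and does not show that a factor bound there. The antioxidant response element (ARE, searched as TGACNNNGCA on both strands) lay in 2 of 24 promoters of the oxidative stress list and in 3.32% of all, and neither of the 2 genes was called.

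Most genes of the lysosome and autophagy list were called higher: 25 of 40 were higher and 1 was lower, with a median log2 fold change of 0.43 and 6 higher with each siRNA. Sqstm1, the autophagy receptor p62 (chromosome 11, 50200152 to 50210820), stood at 132.6 and 218.7 CPM untreated. With siRNA it held 337.3 to 425.3 CPM in clone 12 and 527.9 to 651.2 in clone 14. The rise was 2.71-fold (log2 fold change 1.44 ± 0.12 SE, adjusted p by edgeR = 1.82e-06) and nearly the same with every siRNA, from 1.37 with FLAG and Qiagen to 1.50 with Life. Map1lc3a, an LC3 protein of the autophagosome membrane, rose by 1.03 (edgeR adjusted p = 0.000423). Atp6v1h, a subunit of the proton pump that acidifies lysosomes, rose by 0.67 (0.000254). Of the hydrolases, Hexa, the alpha subunit of hexosaminidase, rose by 0.93 (0.00076), from 20.6 and 23.7 CPM to 30.09 to 50.85. Ctsd, the protease cathepsin D, rose from 192.3 and 272 CPM to 248.6 to 298 in clone 12 and 376.6 to 457.4 in clone 14 (0.59, edgeR adjusted p = 0.000722). The member that fell was Ulk1, the kinase that starts autophagy (-0.89, edgeR adjusted p = 0.00022), and it differed among the siRNAs (edgeR adjusted p = 3.98e-05). The palindrome TCACGTGA, known as the CLEAR element of lysosomal genes, lay in 6 of 31 promoters of the list and in 2.03% of all tested genes. Of the 6 with it 3 rose, and of the 25 without it 15 rose and 1 fell. It is shown for Ctsd and for Gla, alpha-galactosidase A (0.32, edgeR adjusted p = 0.0261), in capitals.
Ctsd (chr7:142387899-142387946, minus strand): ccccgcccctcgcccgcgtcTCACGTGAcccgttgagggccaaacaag
Gla (chrX:134601173-134601220, minus strand): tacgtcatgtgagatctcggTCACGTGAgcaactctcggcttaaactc
Without untreated clone 12 the list had 19 higher genes, and without untreated clone 14 it had 6.

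Heat shock genes changed in part. Of 24, 7 were higher and 2 lower, and 3 were higher with each siRNA. Over all genes, 12.9% were higher and 17.6% lower, so the lower count is below the background. The list's median log2 fold change was 0.111. With offsets for length and GC, 9 were higher and 4 lower, with a median of 0.0365. Hspa1b, an inducible HSP70, stood at 3.35 and 4.18 CPM untreated and at 7.042 to 26.88 with siRNA (log2 fold change 1.85 ± 0.23 SE, adjusted p by edgeR = 0.000116). Its near-identical copy Hspa1a was at 1.94 (edgeR adjusted p = 0.00179), and reads may be shared between them. The small heat shock protein gene Hspb8 rose from 26.18 CPM to 45.44 to 52.47 in clone 12 and from 0.1031 to 0.2667 to 0.5128 in clone 14 (1.00, edgeR adjusted p = 0.000723). Cryab, the chaperone alpha-B crystallin, was at 1.22 (0.00148) and was called with each siRNA as well. The cytosolic HSP90 gene Hsp90ab1 fell by 0.37 on the log2 scale. The list had 6 higher and 1 lower without untreated clone 12, and 4 and 0 without untreated clone 14. Among immediate early genes, 10 of 24 were higher and 1 lower. Klf4, a zinc finger factor, rose with each siRNA from 15.6 and 24.4 CPM to 30.86 to 80.15 (1.20, SE 0.12, edgeR adjusted p = 2.57e-05). Its relative Klf2 rose by 1.65 (0.000655) but was not called with each siRNA. The test among the 5 siRNAs called 16 of the 24 genes, beside 25.1% of all genes. Klf4 (edgeR adjusted p = 0.00353) and Klf2 (0.0182) were among the 16. Egr1 was the member that fell (-0.62). Without untreated clone 12 the list had 8 higher genes, and without untreated clone 14 it had 4.

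The integrated stress response, in which phosphorylation of eIF2 alpha slows translation and induces ATF4, had 7 of 35 genes higher and 7 lower, with a median log2 fold change of -0.11. Of all genes, 12.9% were higher and 17.6% lower, so the lower count is near the background. On the higher side were Nupr1, a stress-induced chromatin protein (1.46, edgeR adjusted p = 0.000212), Ddit3, the factor CHOP (0.84, 0.000162), and Ppp1r15a, the phosphatase subunit GADD34 that reverses the eIF2 mark (0.87, 0.000212), each called with every siRNA. Nupr1 went from 7.07 and 16.9 CPM untreated to 16.59 to 25.77 in clone 12 and 25.68 to 84.96 in clone 14. On the lower side, Slc7a5, the large neutral amino acid transporter, fell from 160 and 187 CPM to 76.05 to 135.7 (-0.63, SE 0.09, edgeR adjusted p = 0.000285). Psat1, of serine synthesis, fell by 0.44 on the log2 scale and was called with each siRNA. Shmt2, the mitochondrial serine hydroxymethyltransferase, was at -0.75 (edgeR adjusted p = 0.00133) and differed among the siRNAs (7.93e-05). Its call ended without untreated clone 14 (adjusted p = 0.0525). The list had 3 higher and 12 lower without untreated clone 12, and 4 and 1 without untreated clone 14.

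Of 26 targets of NF-kB, chemokines among them, 8 were higher and 1 lower, with a median log2 fold change of 0.46, and the other members were not called. Ptgs2, the inducible cyclooxygenase, was at 133.8 and 428.8 CPM untreated. Its siRNA libraries held 260.3 to 429.4 CPM in clone 12 and 857.8 to 1643 in clone 14, above the untreated library of the same clone in each case (1.47, SE 0.20, edgeR adjusted p = 0.000177). Ccl7, a monocyte chemokine, rose from 0.5688 and 3.677 CPM to 1.19 to 2.757 and 10.44 to 35.29 (2.46, SE 0.34, edgeR adjusted p = 0.000209). The related chemokine gene Ccl2 rose by 1.66 (0.000786; 0.0637 without untreated clone 14). Relb, an NF-kB subunit, rose by 1.14 (0.000932), and Nfkb1, another subunit, was the member that fell (-0.41, edgeR adjusted p = 0.0041; 0.135 without untreated clone 14). The list had 7 higher and 2 lower without untreated clone 12, and 3 and 0 without untreated clone 14.

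The interferon response and RNA sensor list had 13 of 40 genes higher and 5 lower, with a median of 0.30, and 7 higher and 3 lower with offsets for length and GC (median 0.115). It had 2 higher and 4 lower without untreated clone 12, and 5 and 2 without untreated clone 14. The leading inducible genes were at low levels, far lower in clone 14 than in clone 12. Ifit1, which binds RNA with foreign ends, was at 1.45 CPM in untreated clone 12 and 4.574 to 7.344 with siRNA there, against 0.0515 untreated and 0.1465 to 0.2667 with siRNA in clone 14. Its pooled change was 2.02 (SE 0.33, edgeR adjusted p = 0.000566), with clone values of 2.02 in clone 12 and 2.03 in clone 14. The adjusted p was 0.14 without untreated clone 12, which leaves clone 14, and 0.00942 without untreated clone 14. The interferon-inducible gene Oasl1 (2.75, edgeR adjusted p = 0.000482) and the chemokine Cxcl10 (2.24, 0.000539) were also called with each siRNA. Both lay near 0 in clone 14, so their change is measured mainly in clone 12. In clone 14 the highest siRNA library held 0.04714 CPM of Oasl1 and 0.3049 CPM of Cxcl10. Adar, the adenosine deaminase that edits double-stranded RNA, fell with each siRNA, from 64.8 and 27.8 CPM to 31.09 to 43.07 and 10.69 to 15.68 (-0.95, SE 0.13, edgeR adjusted p = 0.000177). The RNA interference machinery itself had 11 of 16 genes lower and 1 higher, with a median log2 fold change of -0.47. Over all genes, 17.6% were lower and 12.9% higher. The genes of this list are long (median 6301 bases), and of all genes of 5139 to 6719 bases 39.5% were lower. With offsets for length and GC, 7 were lower and 2 higher, with a median of -0.158. Ago2, the slicing Argonaute, fell from 146 and 126 CPM to 31.72 to 106.8 (-1.25, SE 0.29, edgeR adjusted p = 0.00466; 0.0956 without untreated clone 14). Drosha, the nuclear microRNA processor, fell by 0.51 on the log2 scale (edgeR adjusted p = 0.00111), and Tarbp2, a partner of Dicer, rose by 0.49. This list had 7 lower genes without untreated clone 12 and 1 without untreated clone 14.

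Most extracellular matrix genes were called higher: 26 of 40 were higher and 1 was lower, with a median log2 fold change of 0.53. Col3a1, a fibrillar collagen, went from 238.3 CPM to 316 to 489.7 in clone 12 and from 93.08 to 137.8 to 241.1 in clone 14 (0.86, SE 0.14, edgeR adjusted p = 0.000606). Sparc, a collagen-binding glycoprotein, rose from 507 and 153.4 CPM to 744.4 to 979 and 219.9 to 344.4 (0.77, SE 0.11, edgeR adjusted p = 0.000296). Both were called with each siRNA. Timp3, an inhibitor of matrix proteases, rose by 1.04 (0.00081) and differed among the siRNAs (0.000261), from 0.39 with HA to 1.81 with Qiagen. Fn1, fibronectin, was the member that fell (-0.75, edgeR adjusted p = 0.00966; 0.3745 without untreated clone 14). The list held 12 higher genes without untreated clone 12 and 8 without untreated clone 14. Targets of TGF-beta and BMP signalling had 10 of 25 higher and none lower, with 7 higher without untreated clone 12 and 3 without untreated clone 14. Among them Tgfbi, a secreted adhesion protein, rose by 1.25 (0.0013; 0.0837 without untreated clone 14), and Hmox1 is a member of this list as well.

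**Figure D2:**
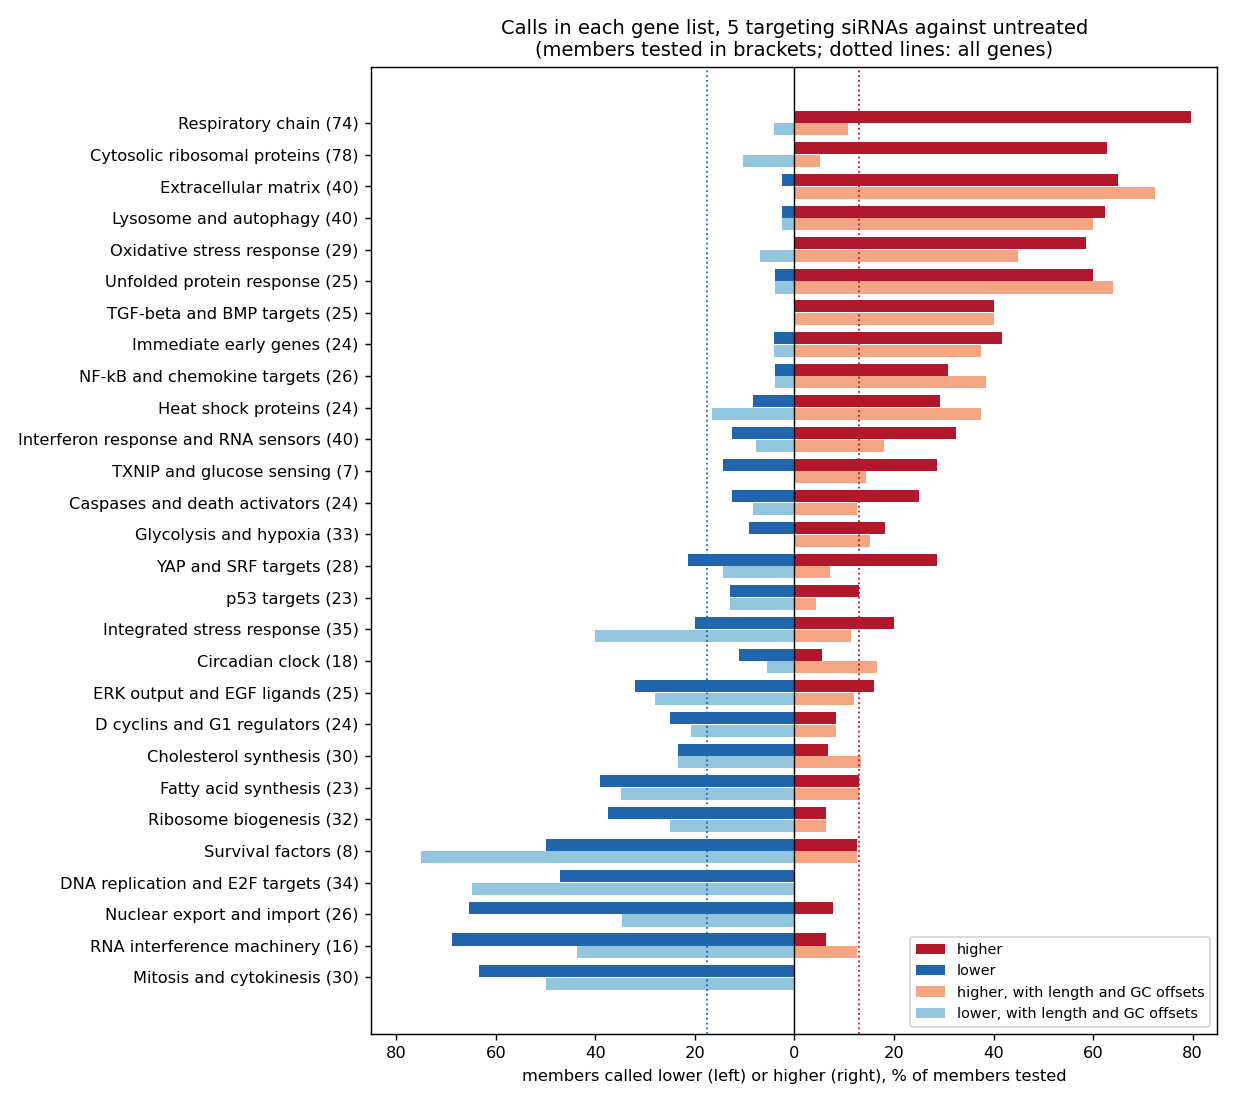
Share of the tested members of each gene list called higher (right) or lower (left) with the 5 siRNAs against untreated cells, in percent, as fitted (dark bars) and after offsets for transcript length and GC content (pale bars); dotted lines mark the 12.9% higher and 17.6% lower of all genes. With the offsets the matrix, lysosome, oxidative stress and unfolded protein response lists have 29, 24, 13 and 16 higher genes, against 26, 25, 17 and 15 without, while the respiratory chain and ribosomal protein lists go from 59 and 49 higher genes to 8 and 4.

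Part of the DNA replication genes and most of the mitosis genes were called lower. Of 34 replication genes and E2F targets 16 were lower and none higher (median log2 fold change -0.29), while members such as Pcna, the sliding clamp of DNA polymerases (0.16, edgeR adjusted p = 0.324), were not called. Further, of 30 mitosis genes 19 were lower and none higher (median -0.33). Uhrf1, which maintains DNA methylation behind the replication fork, was at 342.1 and 242.8 CPM untreated. It held 170 to 225.8 CPM in clone 12 and 138.8 to 179.6 in clone 14 (-0.73, SE 0.10, edgeR adjusted p = 0.000254). It was the member of the replication list called with each siRNA. Pole, the catalytic subunit of DNA polymerase epsilon, fell from 115.4 and 99.18 CPM to 43.75 to 75.77 (-0.91, edgeR adjusted p = 0.000526), and the licensing factor Cdc6 by 0.66 on the log2 scale (0.000741). Asf1b, a histone chaperone, was at -0.85 (edgeR adjusted p = 0.000158), but the siRNAs differed (1.01e-07): the lowest library of clone 14 held 18.69 CPM and the highest 90.64, around 73.9 untreated. Of the mitosis genes, 4 fell with each siRNA. They were Foxm1, the factor that switches on mitotic genes (-0.70, edgeR adjusted p = 0.000177), Bub1b, of the spindle checkpoint (-0.71, 0.000276), Top2a, the DNA topoisomerase of dividing cells (-0.83, 0.000744), and Mki67, the Ki-67 antigen (-0.82, 0.00119). Top2a went from 977.8 and 920.3 CPM untreated to 380.3 to 530 in clone 12 and 488 to 666.6 in clone 14, with no overlap. Without untreated clone 12 the replication list had 6 lower genes and the mitosis list 6 lower and 1 higher. Without untreated clone 14 they had 7 and 13 lower.

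The cell cycle homology region CHR (TTTGAA, both strands), known from promoters of mitotic genes, lay in 17 of 24 promoters of the mitosis list and in 14.8% of all tested genes. Of the 17 members with it 11 fell, and of the 7 without it 4 fell. It is printed in capitals for Top2a, where it reads on the opposite strand, and for Mki67.
Top2a (chr11:99024190-99024232, minus strand): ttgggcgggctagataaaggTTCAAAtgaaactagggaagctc
Mki67 (chr7:135716452-135716497, minus strand): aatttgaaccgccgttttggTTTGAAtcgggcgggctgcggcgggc
These windows lie upstream of the start. The copies in capitals lie 17 bases before it in Top2a and 92 in Mki67. Each promoter holds another copy, 173 bases before the start in Top2a and 110 in Mki67, the latter in lower case near the left end of the stretch printed.

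Around the targeted gene itself, 2 of 24 D cyclins and G1 regulators were higher and 6 lower, the target among them, with 5 lower without untreated clone 12 and 2 without untreated clone 14. Over all genes, 12.9% were higher and 17.6% lower, and the median log2 fold change of this list was 0.00432. These counts are therefore not read as a change of the list as a whole. Rbl1, the retinoblastoma relative p107, fell with each siRNA, from 75.3 and 67.1 CPM to 29.64 to 51.34 (-0.89, SE 0.11, edgeR adjusted p = 9.21e-05). Cdk6, a kinase partner of D cyclins, fell by 1.19 on the log2 scale (edgeR adjusted p = 0.00286; 0.131 without untreated clone 14). Ccnd2, a cyclin related to the target, was at -0.96 (0.00188), differed among the siRNAs (3.13e-05) and lost its call without untreated clone 14 (0.137). The lowest level, 45.75 CPM, was that of Nature clone 12, against 277.5 untreated, and the highest library of that clone held 382.4.

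Of 24 caspases and death activators, 6 were higher and 3 lower (3 and 2 with offsets for length and GC), and of 8 survival factors 1 was higher and 4 lower. Against 12.9% higher and 17.6% lower over all genes, the 3 lower death genes and the 1 higher survival factor are no more than the background. Without untreated clone 14 these counts were 0 and 1 in both lists. Bcl2, the founding survival factor of its family, was at 35.41 and 31.58 CPM untreated. With siRNA it held 10.58 to 23.76 CPM in clone 12 and 7.812 to 14.32 in clone 14, below the untreated libraries in all 10 (-1.25, SE 0.12, edgeR adjusted p = 1.85e-05). The fall was called with each siRNA and differed among them (0.00507), from -0.86 with Qiagen to -1.89 with FLAG. Bcl2l2, a relative of Bcl2, was at -0.74 (edgeR adjusted p = 0.00164; 0.0858 without untreated clone 14), and Mcl1, another relative, at 0.31 (0.0227; 0.268, and 0.0902 without untreated clone 12). Bcl2l11, the gene of the death activator BIM, went down from 31.2 and 21.7 CPM to 10.69 to 28.22 (-0.57, SE 0.10, edgeR adjusted p = 0.00102). This fall was not called with each siRNA and differed among them (edgeR adjusted p = 0.00155). Bax, a pore-forming death activator, was at 0.54 (0.00906), with 0.197 without untreated clone 14. With offsets for length and GC its estimate was -0.05. Of 23 p53 targets 3 were higher and 3 lower, near or below the 12.9% and 17.6% over all genes.

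In lipid metabolism, the test among the 5 siRNAs called 19 of 30 cholesterol synthesis genes, beside 25.1% of all genes. None of the 30 was called with each siRNA, where the shares of all genes were 0.987% higher and 0.742% lower. Over all genes, 17.6% were lower and 12.9% higher against untreated. Of 23 fatty acid synthesis genes 9 were lower and 3 higher. Of 30 cholesterol synthesis genes 7 were lower, near the background, and 2 higher. Without untreated clone 14 the lower counts were 2 and 0. Acaca, the acetyl-CoA carboxylase that commits carbon to fatty acids, fell from 243 and 164 CPM to between 67.98 and 177.3, with a median of 89.57 (-0.99, SE 0.14, edgeR adjusted p = 0.000291). Scd1, the stearoyl-CoA desaturase, fell with each siRNA (-0.55, 0.000968; 0.0644 without untreated clone 14). Me1, malic enzyme, which is also on the oxidative stress list, rose with each siRNA (0.61, edgeR adjusted p = 0.00074). Nuclear transport genes were lower for 17 of 26 and higher for 2, with 8 lower without untreated clone 12 and 3 without untreated clone 14. The median log2 fold change of this list was -0.324, and -0.163 with offsets for length and GC. Its median length was 4657.5 bases, and of all genes of 4314 to 5138 bases 29.8% were lower. Tnpo1, an import receptor, fell from 603 and 469 CPM to 171.1 to 483.8 (-1.20, SE 0.22, edgeR adjusted p = 0.00104), and Xpo1, the export receptor, by 0.58 on the log2 scale (0.00155). Arntl, the clock factor BMAL1, rose with each siRNA from 13.2 and 10.8 CPM to a narrow range of 17.83 to 21.05 (0.70, SE 0.11, edgeR adjusted p = 0.000622). It was the 1 higher gene of 18 clock genes, and 2 were lower, both counts below the 12.9% and 17.6% over all genes.

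Direction followed transcript length. Genes were ordered by the length of their longest protein-coding transcript, known for 13993. Of 10 equal bins, the bin of the shortest (312 to 1311 bases) had 37.5% called higher and 0.857% lower, and the bin of the longest (6720 bases and more) had 2.57% higher and 52.4% lower. The median log2 fold change went from 0.43 in the shortest to -0.49 in the longest, and Spearman's rho between log2 fold change and length was -0.477 across genes. Genes called higher had a median length of 1914.5 bases, and genes called lower 5115. Against the untreated library of its clone, each siRNA library had a negative rho, from -0.0476 in Qiagen clone 12 to -0.582 in Nature clone 12. The SCR libraries had -0.271 and -0.484, and leptomycin B libraries, which were not transfected, -0.347 and -0.283. All these ratios share the untreated libraries. The part of length in any single result was not tested, but a fit with an offset per library for length and GC content, chosen after seeing the data, gave 1542 higher and 2368 lower genes. Of the genes called before, 2707 were called again in that fit, and 4205 of 4481 with a value had the same sign.

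**Figure D3:**
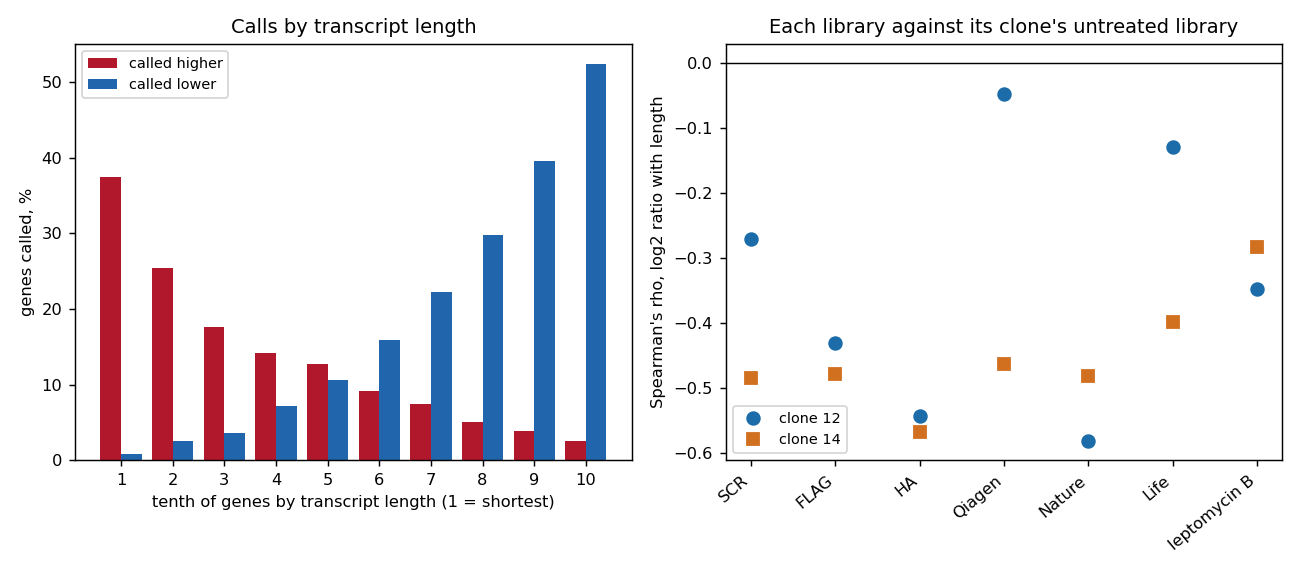
Left, percent of genes called higher or lower in each of 10 bins of genes by transcript length (1 is the shortest); right, Spearman's rho between a library's log2 ratio to its own clone's untreated library and transcript length, 1 point per library. Higher calls go from 37.5% to 2.57% and lower calls from 0.857% to 52.4% along the bins, and every point on the right lies below 0, from -0.0476 to -0.582.

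The groups of short genes changed most with that fit. Of 78 cytosolic ribosomal protein genes (median length 925.5 bases), 49 were higher and none lower, with a median of 0.41, and with the offsets 4 were higher and 8 lower. Without untreated clones 12 and 14 in turn, 8 and 1 were higher. Of 74 respiratory chain genes (913 bases), 59 were higher and none lower, with a median of 0.53, and with the offsets 8 were higher and 3 lower. Without untreated clones 12 and 14 in turn, 32 and 0 were higher. None of the ribosomal protein or respiratory chain genes was called with each siRNA. Such calls were rare over all genes too, at 0.987% higher and 0.742% lower. With the offsets 13 oxidative stress genes were higher and 2 lower, 16 and 1 in the unfolded protein response, 24 and 1 for lysosome and autophagy, 29 and 0 for the matrix, 10 and 1 for NF-kB targets, 0 and 22 for replication, and 0 and 15 for mitosis. Matrix genes are long (median 4445 bases), and their calls went against the trend. Integrated stress response genes went to 4 higher and 14 lower. Ddit3 (0.35, edgeR adjusted p = 0.0838) and Mki67 (-0.31, 0.104) lost their calls with the offsets. Nuclear transport genes went to 9 lower and the RNA interference machinery to 7 lower and 2 higher.

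A set of 245 genes kept its call and direction through 5 fits: as first fitted, with the offsets, without each untreated library in turn, and with the siRNAs as 1 group. Of these, 98 were higher and 147 lower, and 147 had been called with each siRNA. The median length was 2147 bases for the higher and 5991 for the lower. The higher ones include Hmox1, Nqo1, Gsta4, Sqstm1, Hspa5, Sdf2l1, Dnajb9, Map1lc3a, Hspa1b, Ptgs2, Ccl7, Relb, Nupr1, Klf2 and Klf4. The lower ones include Ccnd1, Bcl2, Adar, Acaca and Cenpf, and, chosen after their values were seen, Brca2 and Fancd2, of DNA repair.

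The largest rises by the rule for naming genes were those of Cyp1a1, a cytochrome P450 induced through the aryl hydrocarbon receptor, and Serpinb1a, a protease inhibitor. Cyp1a1 was at 0 CPM in untreated clone 12 and 0.1375 in untreated clone 14. Its siRNA libraries held 0.03719 to 0.2086 CPM in clone 12 and 1.026 to 3.943 in clone 14 (4.10, SE 0.60, edgeR adjusted p = 0.000287; 0.158 without untreated clone 14). As levels in clone 12 were near 0, that value depends on the prior count. Serpinb1a went from 0.0325 to 0.3756 to 0.9365 CPM in clone 12 and from 0.9795 to 4.909 to 28.93 in clone 14 (3.92, SE 0.69, edgeR adjusted p = 0.000909; 0.105 without untreated clone 14). Next came the neuropeptide precursor Tac1 (2.98, edgeR adjusted p = 0.000846; 0.239 without untreated clone 14), Mrgprf (2.47, 0.00112), Ccl7, and Serping1, the complement C1 inhibitor (2.27, 0.00185; 0.0523). Among the largest falls after Ccnd1 were those of Zbed6 (-2.37, edgeR adjusted p = 0.0045; 0.195 without untreated clone 14) and Shroom4 (-2.27, 0.00129; 0.0915). In Zbed6 the siRNA libraries were spread widely, from 2.593 to 77.59 CPM, around a median of 14.02, against 84.37 and 78.25 untreated. Among abundant genes, Lgals3, which encodes galectin-3, a lectin that binds damaged endosomes and lysosomes, rose from 180.4 and 261.9 CPM to a median of 518.8 (1.15, SE 0.20, edgeR adjusted p = 0.000981; 0.0784 without untreated clone 14).

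**Figure D4:**
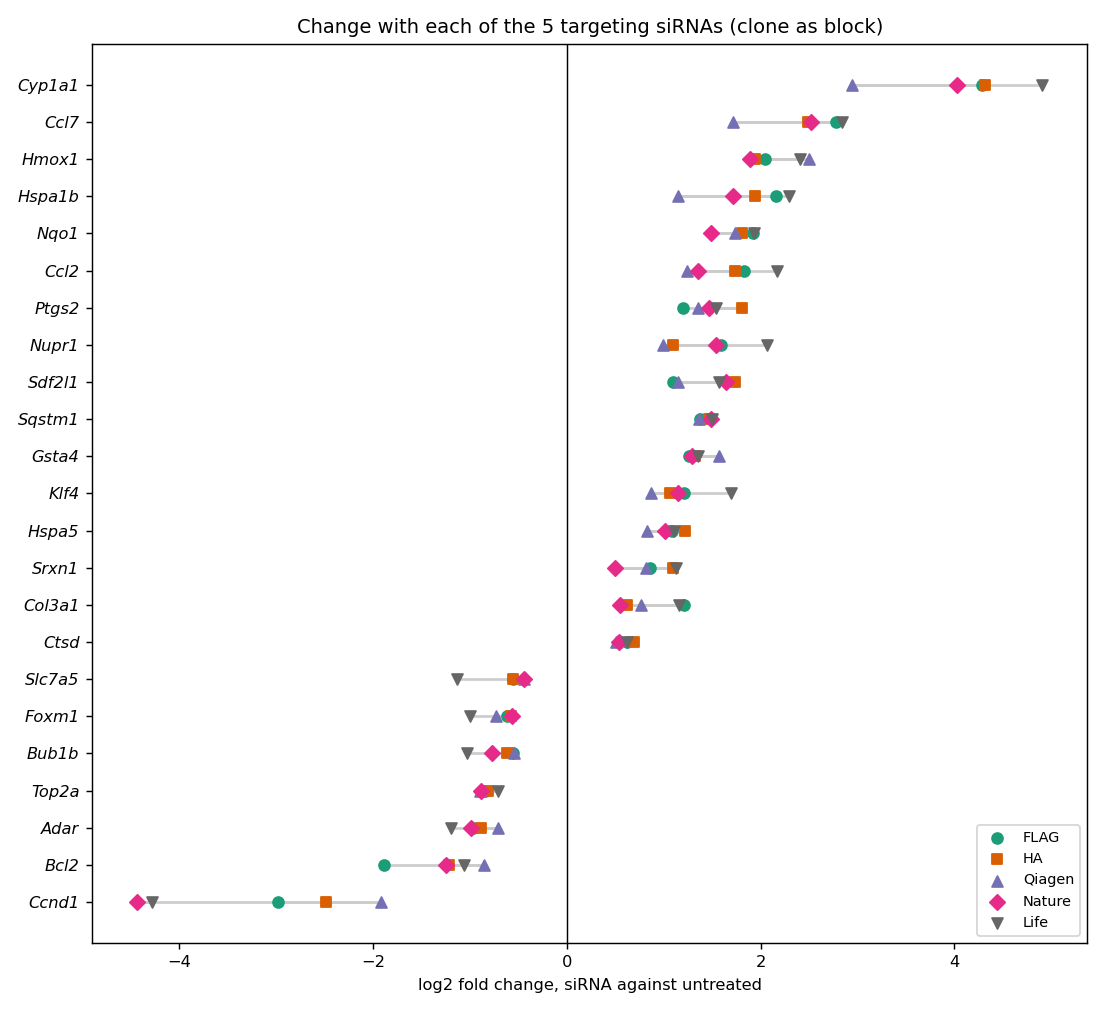
Log2 fold change of 23 genes with each of the 5 siRNAs against untreated cells, clone as block. Each symbol is 1 siRNA (2 libraries against the same 2 untreated libraries). All genes drawn are among those called with each siRNA (0.987% of all genes higher and 0.742% lower). That each of the points passed the edgeR test therefore follows from the genes drawn and is no further result. Sqstm1 has the 5 values close together, from 1.37 to 1.50, and Ccnd1 has them far apart, from -1.92 with Qiagen to -4.43 with Nature.

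Some genes followed single siRNAs in place of the shared pattern. Fam114a2 was at 63.18 and 68.13 CPM untreated and at 65.68 to 82.5 with FLAG, HA or Qiagen siRNA. With Nature it was at 13.53 and 11.48 CPM and with Life at 25.61 and 19.71 (edgeR adjusted p = 2.27e-08 among the 5). Its pooled fold change of -0.71 (edgeR adjusted p = 0.000423) therefore came from 2 siRNAs. Arf2, a small GTPase of vesicle traffic, had its lowest levels with Nature too, at 23.65 and 17.5 CPM (edgeR adjusted p = 6.02e-09 among the 5), and was not called in the pooled comparison (0.15, 0.199). Polr2m fell with Qiagen to 43.23 and 24.14 CPM, from 207.4 and 155.4 untreated, and was at 138.4 to 296.6 with the others (2.27e-08). Spryd3 was at 15.16 and 11.47 CPM with Qiagen and at 58.72 to 73.45 with the others (2.27e-08), and it was not called in the pooled comparison either (-0.23, 0.0679).

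The SCR siRNA and leptomycin B, an inhibitor of nuclear export given at 20 ng/mL without transfection, were also compared with the same untreated libraries, so their values are not independent of those above. The SCR library of clone 12 had the most counts of all 28 libraries, 81512769, and the fewest genes with any count, 14132. Its part in the SCR values was not tested. Nqo1 was at 1.59 with SCR (edgeR adjusted p = 3.61e-05) and at 0.05 with leptomycin B, beside 1.78 with the 5 siRNAs. Hmox1 was at 1.73 and -0.07 beside 2.16, Sqstm1 at 1.10 and 0.38 beside 1.44, and Ptgs2 at 1.43 and -0.33 beside 1.47. The test of the 5 siRNAs against SCR, which uses no untreated library, gave 0.18 for Nqo1 (edgeR adjusted p = 0.413), 0.42 for Hmox1 (0.253), 0.34 for Sqstm1 (0.0743) and 0.05 for Ptgs2 (0.932). It called Srxn1 (0.50, edgeR adjusted p = 0.0238) and Hspa5 (0.56, 0.022). Uhrf1 was at -0.06 with SCR against untreated and at -0.67 with the 5 siRNAs against SCR (edgeR adjusted p = 0.00125). For Top2a these values were -0.35 and -0.48 (0.0633), for Bcl2 -0.81 and -0.44 (0.0622), and for Ccnd1 -0.03 and -3.19 (5.62e-10).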

How the data were processed

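Stranded poly(A) libraries (TruSeq, single reads of 100 bases, Illumina HiSeq) were made, per the labels' protocols. The submitters' processing notes name CASAVA 1.8.2, FastQC, TopHat2 2.0.13, Bowtie2 2.2.3, HTSeq 0.6.1p1 and mm10. Neither the counting's strand setting nor its annotation is stated, so reads of overlapping or near-identical genes can be mixed. What the authors deposited is 1 table of raw counts, with 24079 rows, 22 of them without a gene ID.

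All 28 libraries, in 15 groups, were fitted with edgeR 4.0.16 in R 4.3.3 (filterByExpr, TMM, robust quasi-likelihood, 17 coefficients, 11 residual degrees of freedom), with the clone, or the matched pair of the mCherry lines, as block, since both arms hold the same 2 clones. Groups of 2 libraries thus share the estimate of spread (biological coefficient of variation 14.6%). As a check of the block, deviations of the 6 libraries of clone 12 from their group means correlated at 0.832 or more in 15 pairs. In 66 pairs of the 12 libraries, chi-square over its degrees of freedom was at least 50, so none was counted as a duplicate. The contrast was the mean of the 5 siRNA groups minus untreated, with Benjamini-Hochberg adjustment over 15099 genes and a threshold of 0.05. The standard error is the log2 fold change over the square root of F. CPM used TMM size factors.

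On simulated data, edgeR recovered 86 and 99 of 100 genes at log2 changes of 1 and 2 (8 false among 211 calls, 14858 genes) for the main contrast, 70 and 97 among the 5 siRNAs (13 false among 180), and 23 and 81 for the clone difference (3 false among 107, 13519 genes). In this simulation the 5 siRNAs had equal levels within a clone, except in the genes set to differ among them. DESeq2 1.42.0 was an alternative. Transcript lengths came from GENCODE vM21 for 92.7% of genes, and promoters from RefSeq (GRCm38.p6). Named genes were Ccnd1, the 8 largest and 8 smallest called log2 fold changes (mean of at least 1 CPM, all 10 libraries on 1 side), 6 abundant genes changed at least 2-fold, the 4 with the smallest p among siRNAs, and up to 6 per list by p. Not every gene that this rule selects is described, and some are not reported here. List members named outside it (Ern1, Psat1, Pcna, Hsp90b1, Hsp90ab1, Egr1, Tarbp2, Gla, Brca2, Fancd2) were chosen after their values were seen. The comparison, gene lists and tests were chosen with earlier results of these data known. Marker lists served as checks, and mixed cells were not modelled.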

Additional observations from a re-analysis of the deposited data

How the results depend on the processing

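The genes called fell from 4607 to 16 with no replicate block, to 742 with the siRNAs as 1 group in the 12 libraries, and to 2854 without the HA and Nature libraries, an alternative chosen after seeing the data. Leaving out 1 library at a time gave 570 to 5245, with 570 without untreated clone 14 and 2556 without untreated clone 12, where 1 clone alone informs the comparison. The calls shared by all 5 siRNAs, 261, went to 1 with no replicate block, 463 with DESeq2, 118 without the libraries with over 2% Rn45s, and 53 to 361 without single libraries. The calls among the siRNAs, 3796, went to 273 with no replicate block and 2656 to 4518 without single libraries. The clone difference had 0 calls with edgeR (287 at an unadjusted p under 0.05) and 5 with DESeq2. The pairing is that of the clones, which are the same in both arms. With offsets for length and GC content, also chosen after seeing the data, 6 of the genes selected for naming reversed: Bax (-0.05005), Rpl24 (-0.08299), Rpl38 (-0.1406), Rpl36a (-0.1153), Atp5k (-0.003929) and Uqcrh (-0.02827). The cause was not tested beyond the construction of these fits. Only 2 untreated libraries enter the comparison, and the effect of depth was not tested.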
